A study of Mus musculus with 24 samples.

Results

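The comparison described here sets livers that carry a thyroid hormone receptor β (TRβ) with a changed DNA-binding domain against livers that carry no TRβ, in mice without thyroid hormone. It uses 6 of the 24 arrays of the study, 3 from the group titled GS_PBS and 3 from the group titled KO_PBS, chosen by those titles alone. GS mice have the amino acid changes E125G and G126S in TRβ, and KO mice are TRβ knockouts. Both lines are on a C57BL/6J background, and all 6 animals were males of 8 to 9 weeks. Both groups were made hypothyroid over 3 weeks by drinking water that held 0.5% perchlorate, 0.02% methimazole and 0.3% saccharin, together with a diet low in iodine, and belong to the groups titled PBS, the counterparts of those given an intraperitoneal dose of T3. Wild-type mice (WT, 3 arrays) prepared in the same way, and GS and KO mice given T3 at 20 µg per 100 g body weight 6 h before the liver was taken (3 arrays each), are used to place the GS and KO values. All 24 arrays also enter the estimate of each gene's spread behind every SE and p. These include 3 from WT mice given the same T3 dose and 6 from mice with the TRβ change Y147F, 3 titled PBS and 3 titled T3. The Y147F mice were older, at 10 to 11 weeks, and were prepared differently. Their labels give 1% perchlorate and 0.05% methimazole, with no saccharin listed. How the alleles were made, and whether they act outside the liver, is not given in the labels used here. Each title carries its own number, and each array was counted as 1 animal.

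TRβ is the main thyroid hormone receptor of hepatocytes and acts in the nucleus as a transcription factor, usually as a partner of RXR. Its P-box, a short helix of the DNA-binding domain, reads the DNA half-site, and the GS changes give it the residues found at that place in the glucocorticoid receptor. A receptor without hormone can hold target genes down through corepressors, while hormone exchanges these for coactivators. A knockout removes the protein with all its functions, and the GS protein keeps the hormone-binding domain, so the comparison asks what a TRβ unable to read its usual DNA site leaves different from no TRβ at all.

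The values are log2 intensities as deposited, so a difference of 1 is a 2-fold difference, and every group has n = 3 arrays, whose number limits the precision. Array medians of the GS and KO PBS arrays lay between 5.94 and 5.99. Correlations over all tested genes were 0.9945 to 0.9959 among GS arrays, 0.9938 to 0.9943 among KO arrays and 0.9915 to 0.9947 between them. The first principal component of the 6 arrays held 34.3% of the variance and had GS arrays at -15.46 to -4.69 and KO arrays at 5.08 to 12.77. The second, with 20.6%, set KO replicate 2 (11.83) and KO replicate 3 (-15.10) apart from each other.

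The probe set for Thrb, the gene of TRβ, read 6.93, 6.94 and 7.00 in GS, 7.25, 6.82 and 6.89 in KO, and 6.64, 7.01 and 6.75 in WT. The groups overlapped and the difference was -0.03 ± 0.17 (SE). This probe set therefore does not show the loss of the receptor, and its place relative to the deleted part is not given in the labels used here. Thra, which encodes the other receptor, differed by 0.04 ± 0.12. Hepatocyte markers were bright in every array. The mean over the 10 tested markers was 14.54 to 14.58 in GS and 14.51 to 14.54 in KO, with albumin (Alb) at 15.12 to 15.18.

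GS livers differed from KO livers in few genes. Of 14162 genes tested with limma, 12 were called at an adjusted p under 0.05, which is 0.0847%. Among them 7 (0.0494%) were higher and 5 (0.0353%) lower in GS. The higher genes were the sulfotransferases Sult1a1 and Sult1b1, the glutathione transferase Gstm6, the urate transporter Slc2a9, the creatine synthesis enzyme Gamt, the leucine breakdown enzyme Mccc1 and the membrane traffic GTPase Arf5. The lower genes were the small heat shock protein Hspb1, Nkiras1, whose product binds inhibitors of NF-κB, the tetratricopeptide repeat gene Ttc39a, the collagen Col27a1 and the methionine sulfoxide reductase Msrb3. By comparison 1208 genes (8.53%) had an unadjusted p under 0.05, 600 higher and 608 lower, and 2042 genes (14.4%) had GS and KO arrays that did not overlap.

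The sequences before the start sites of 3 of the genes are shown because the GS changes bear on how the receptor reads DNA. Each is the RefSeq window on GRCm38.p6 from 250 bases before to 50 bases after the start, read 5′ to 3′ on the strand of the gene. Capitals mark AGGTCA or its reverse complement TGACCT, the half-site of thyroid hormone receptors, and AGAACA or TGTTCT, the half-site of the glucocorticoid receptor.
Sult1a1 (chr7:126676369-126676668, minus strand): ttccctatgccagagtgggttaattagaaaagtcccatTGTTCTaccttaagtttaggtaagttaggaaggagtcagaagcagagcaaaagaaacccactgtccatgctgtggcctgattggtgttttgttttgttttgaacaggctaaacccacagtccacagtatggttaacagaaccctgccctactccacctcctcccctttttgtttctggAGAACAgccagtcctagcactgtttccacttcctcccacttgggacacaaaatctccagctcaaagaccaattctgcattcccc
Ttc39a (chr4:109415397-109415696, plus strand): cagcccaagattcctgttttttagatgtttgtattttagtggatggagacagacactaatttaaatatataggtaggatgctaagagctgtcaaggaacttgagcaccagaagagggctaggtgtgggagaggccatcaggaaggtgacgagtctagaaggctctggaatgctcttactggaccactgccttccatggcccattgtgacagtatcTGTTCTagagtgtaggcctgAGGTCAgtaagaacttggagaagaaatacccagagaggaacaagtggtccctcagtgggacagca
Hspb1 (chr5:135887669-135887968, plus strand): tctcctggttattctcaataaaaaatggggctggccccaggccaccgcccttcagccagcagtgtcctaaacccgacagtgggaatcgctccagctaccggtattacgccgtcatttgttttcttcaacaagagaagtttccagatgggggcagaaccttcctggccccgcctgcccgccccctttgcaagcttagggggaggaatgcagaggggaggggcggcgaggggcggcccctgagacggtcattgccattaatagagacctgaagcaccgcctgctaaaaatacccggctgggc

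Windows were found for 11 of the 12 called genes. They have 14 windows, since Gstm6 has 3 and Sult1b1 has 2, and a gene with several windows has more chances of a match. AGGTCA, searched on both strands, was in 3 of the 14 windows (of Slc2a9, Sult1b1 and Ttc39a) and in 16.3% of all 32851 windows. AGAACA was in 6 of the 14 (of Arf5, Gstm6, Sult1a1, Sult1b1 and Ttc39a) and in 19% of all windows. Counted by gene, AGGTCA was in 3 of the 11 genes and in 18.1% of all genes, and AGAACA in 5 of the 11 and in 21.3%. Ttc39a held both in its window, where the matches start at bases 216 and 236 and do not overlap, while Sult1b1 held each in a different window. A match is a string of letters here and does not show binding.

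Nkiras1 was the gene with the smallest p. It read 9.31, 9.13 and 9.19 in GS, against 9.86, 10.06 and 10.14 in KO and 8.84, 9.03 and 9.11 in WT. Every GS array lay below every KO array, and the difference was -0.81 ± 0.09 (adjusted p = 0.000239), 1.76-fold lower in GS. Ttc39a had the largest difference among the called genes, at 6.60, 6.37 and 6.37 in GS and 7.67, 7.76 and 7.86 in KO, while WT arrays read 6.57, 6.50 and 6.75. It was 2.49-fold lower in GS (-1.31 ± 0.21, adjusted p = 0.0114). In both genes the KO arrays stood apart as the high group, with GS and WT arrays close to each other.

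Hspb1, a small heat shock protein that binds unfolded proteins and actin, read 10.01, 9.95 and 10.10 in GS and 10.79, 11.29 and 11.03 in KO. It was 2.02-fold lower in GS (-1.01 ± 0.12, adjusted p = 0.000416), and the WT arrays at 10.30, 10.28 and 10.14 lay between the groups, nearer to GS. Col27a1, a chain of a fibrillar collagen, read 8.54, 8.48 and 8.48 in GS and 9.17, 9.19 and 8.88 in KO (-0.58 ± 0.10, adjusted p = 0.0300). Msrb3, which repairs oxidised methionine, read 7.30, 7.19 and 7.35 in GS and 7.74, 7.81 and 7.96 in KO. Its difference of -0.56 ± 0.11 passed the threshold narrowly (adjusted p = 0.0499). Second probe sets of Hspb1, Col27a1, Msrb3 and Mccc1 lay in the same direction with arrays that did not overlap.

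Sult1a1, which adds sulfate to phenols and also to iodothyronines, was the strongest of the higher genes. It read 12.90, 12.92 and 13.00 in GS, against 12.26, 12.38 and 11.83 in KO and 12.80, 12.92 and 12.75 in WT. The GS level was 1.72-fold higher (0.78 ± 0.10, adjusted p = 0.00133), and KO replicate 3 was the lowest of all these arrays. Sult1b1, a related sulfotransferase that also acts on thyroid hormones, read 9.48, 9.59 and 9.32 in GS and 9.14, 8.89 and 8.96 in KO (0.47 ± 0.09, adjusted p = 0.0408). Gstm6, which conjugates glutathione, read 11.73, 11.60 and 11.58 in GS and 10.96, 11.09 and 11.30 in KO (0.52 ± 0.09, adjusted p = 0.0300). These enzymes belong to families with closely related copies, and a probe set can take signal from a relative.

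The other 4 higher genes had an adjusted p of 0.0300 each. Mccc1, a subunit of methylcrotonyl-CoA carboxylase, read 10.75, 10.80 and 10.74 in GS and 10.07, 10.16 and 10.10 in KO, a difference of 0.66 ± 0.12 with little spread in either group. Arf5, a GTPase of vesicle traffic, read 10.79, 10.96 and 10.86 in GS and 9.98, 10.37 and 10.50 in KO (0.59 ± 0.10), with the wider spread on the KO side. Slc2a9, the urate transporter, read 10.09, 10.00 and 10.07 in GS and 9.73, 9.51 and 9.48 in KO (0.48 ± 0.09). Its second probe set differed by only 0.09, with overlapping arrays, so the probe sets of Slc2a9 do not show the same size. Gamt, which makes creatine, read 11.77, 11.92 and 11.79 in GS and 11.44, 11.50 and 11.44 in KO (0.37 ± 0.07).

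Below the threshold the list went on without a gap. Tmem45a, a membrane protein, differed by -0.98 ± 0.19 (adjusted p = 0.0500) and Mbnl1, a splicing regulator, by -0.37 ± 0.07 (adjusted p = 0.0500). Dimmer probe sets of Mbnl1 went the other way, at 0.07 and 0.13, with overlapping arrays. Miga1, a protein of mitochondrial fusion, differed by -0.72 ± 0.14, with 2 GS arrays under the 40th percentile of their array, the level used to filter genes, and Zdhhc9, a palmitoyltransferase, by 0.29 ± 0.06, each with an adjusted p of 0.0511. None of these 4 passed.

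Set against WT, which shares the GS or the KO arrays with the main comparison, the 12 genes had GS minus WT differences of -0.29 to 0.22 (adjusted p 0.160 to 0.991) and KO minus WT differences of -0.67 to 1.16. Sult1a1, for example, stood 0.12 above WT in GS and fell by 0.67 in KO, and Hspb1 stood 0.22 below WT in GS and 0.79 above it in KO. Over all genes, GS against WT gave 418 calls (2.95%) and KO against WT 973 calls (6.87%).

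**Figure D1:**
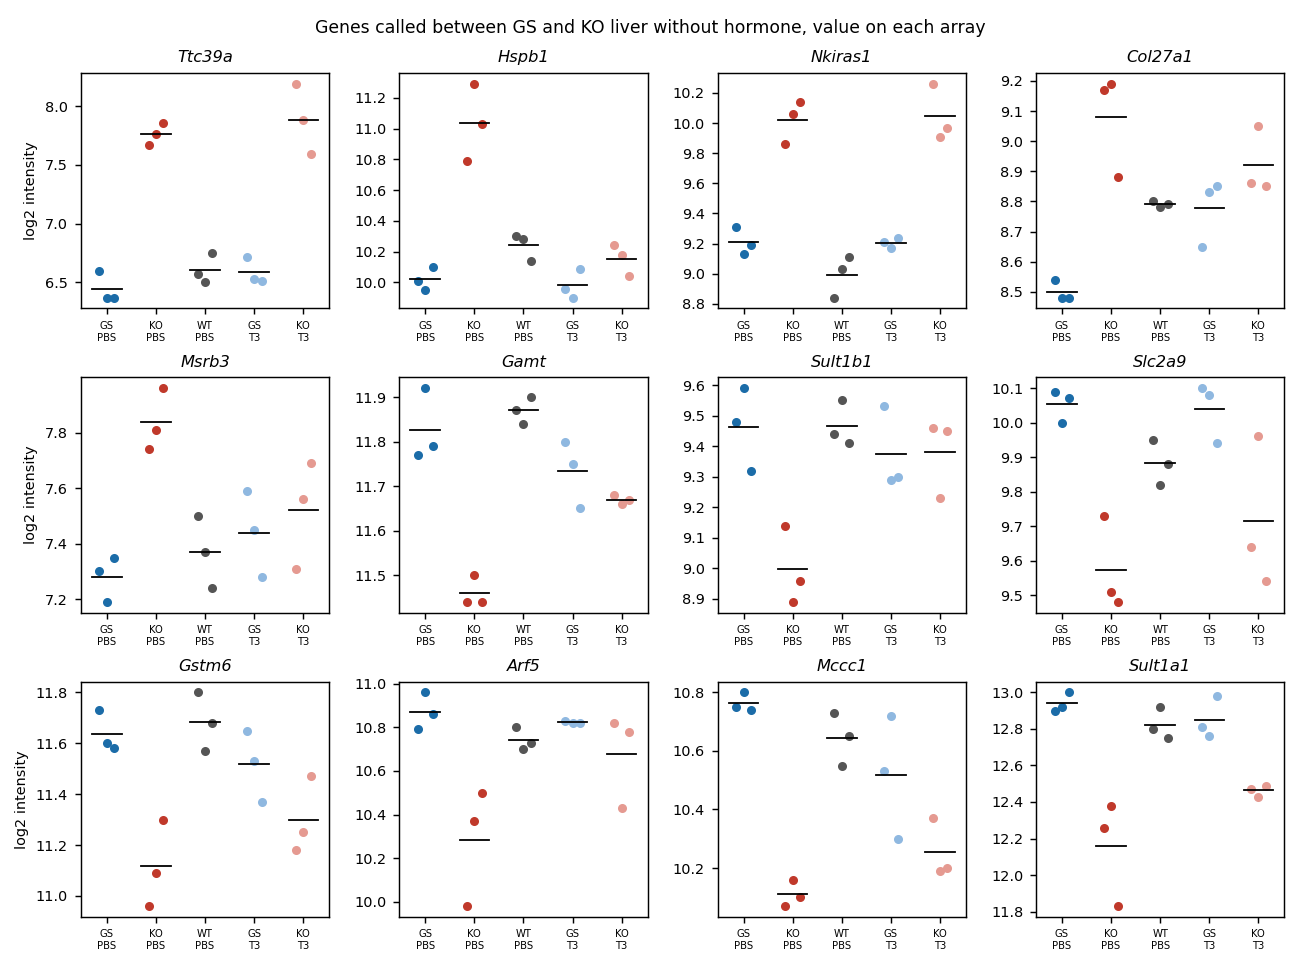
Log2 intensity (y axis) of the 12 called genes on each of 3 arrays per group, with a bar at the group mean, for GS, KO and WT given PBS and for GS and KO given T3. In all 12 genes the 3 GS and 3 KO PBS arrays do not overlap, and with T3 the separation stays as wide for Nkiras1 (-0.84) and Ttc39a (-1.30).

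The number of calls rested on single arrays. Without GS replicate 2 or GS replicate 3 only 3 genes were called each time, and without KO replicate 1 there were 22. Nkiras1 and Hspb1 kept their calls whichever of the 6 arrays was left out and in all 9 other fits, and Sult1a1 in the same 6 and in 8 of the 9. Ttc39a lost its call without GS replicate 2 or GS replicate 3 and with a covariate for title numbers (adjusted p up to 0.101). Of the other 8 genes, Arf5 stayed called in 3 of the 6 fits, Mccc1 in 0 and the rest in 1 each, with an adjusted p of up to 0.288. A fit of the 6 arrays alone called 16 genes, of which 4 were among the 12. Titles with a number over 100000 belong to 3 of 3 KO and 1 of 3 GS arrays, and with a covariate for it 6 genes were called. The labels used here do not say what the number stands for.

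The same genotypes were compared in 6 further arrays, from GS and KO mice given T3. These differences come from other arrays than the PBS differences, but both are tested against the same estimate of each gene's spread, so their p-values are not independent. With T3, 15 genes (0.106%) were called, 8 (0.0565%) higher and 7 (0.0494%) lower in GS, and 6.87% of all genes had an unadjusted p under 0.05. Of the 12 genes called with PBS, 11 had the same sign with T3, 6 had an unadjusted p under 0.05 and 2 were called again, Nkiras1 (-0.84 ± 0.09, adjusted p = 0.000147) and Ttc39a (-1.30 ± 0.21, adjusted p = 0.00997). Their median size was 0.58 with PBS and 0.19 with T3. The 12 genes were chosen by their PBS difference, and a smaller size in other arrays can follow from that choice alone. For all 14162 genes the sign was shared by 54.4%, and the differences correlated with r = 0.26 across genes, which are not independent.

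Ttc39a read 6.72, 6.53 and 6.51 in GS with T3 and 8.19, 7.88 and 7.59 in KO with T3, so its GS and KO arrays were as far apart as with PBS. Sult1a1 kept its direction at 0.39 ± 0.10 with T3, with GS arrays at 12.81, 12.76 and 12.98 and KO arrays at 12.47, 12.43 and 12.49, but was not called there (adjusted p = 0.290). Hspb1 read 9.96, 9.90 and 10.09 in GS and 10.24, 10.18 and 10.04 in KO with T3, where the arrays overlapped (-0.17 ± 0.12). A direct test of whether the genotype difference changes with T3 called 0 genes with limma, while 809 (5.71%) had an unadjusted p under 0.05. For Hspb1 that change was 0.84 ± 0.17 (limma, unadjusted p = 8.81e-05, adjusted p = 0.512). For Sult1b1, at -0.00 ± 0.09 with T3, it was -0.47 (limma, unadjusted p = 0.00118, adjusted p = 0.662). Both genes were picked by their PBS difference, which is part of this change, so their unadjusted p-values lean low.

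Read from the T3 side, 13 of the 15 genes called there had the same sign with PBS, beside 54.4% of all genes. In 9 the PBS arrays did not overlap in that direction, beside 14.4% of all genes not overlapping in either direction. The genes of this paragraph are named only because they were called with T3. Zc3h12d, an RNA-binding zinc finger gene, differed by 1.03 ± 0.15 with T3 and 0.75 ± 0.15 with PBS, and Adat2, a tRNA deaminase, by -1.04 ± 0.16 and -0.75 ± 0.16. Treh, which splits trehalose, and Adamdec1, a metalloprotease, were the 2 with opposite signs, at -0.87 and 1.10 with T3 and 0.08 and -0.18 with PBS, where all 6 arrays of Treh lay under the 40th percentile. The count with T3 also turned on single arrays, from 2 without KO T3 replicate 1 to 30 without KO T3 replicate 3, and was 0 in a fit of those 6 arrays alone. It was also 9 without KO T3 replicate 2, 8 without GS T3 replicate 2 and 3 without GS T3 replicate 3.

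**Figure D2:**
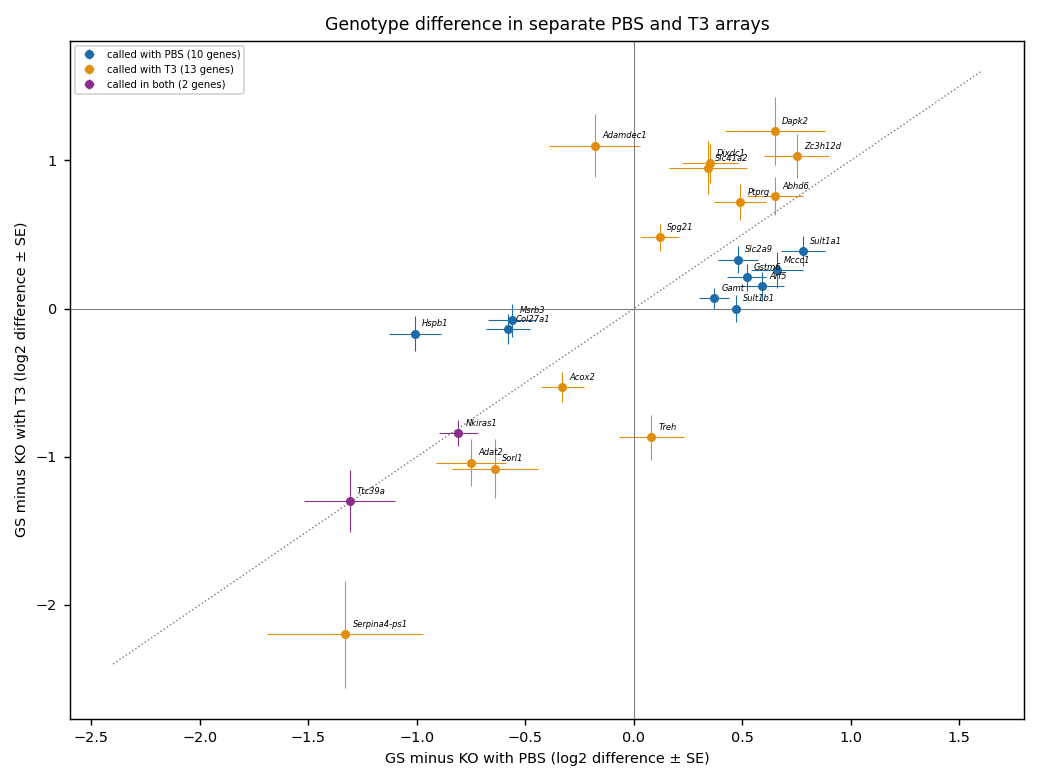
GS minus KO log2 difference ± SE with PBS (x axis) and with T3 (y axis), from separate arrays, for the 12 genes called with PBS and the 15 called with T3; the dotted line marks equal differences. Nkiras1 and Ttc39a lie on that line, while Hspb1, Col27a1 and Msrb3 lie near 0 on the T3 axis.

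Nkiras1 is the second tested gene after Thrb on chromosome 14. Of the 74 tested genes around Thrb, 24 before it up to the chromosome's start and 50 after it, 1 was called with PBS and 4 with T3. An unadjusted p under 0.05 was found for 16 of the 74 with PBS (7 higher and 9 lower) beside 8.53% of all genes, and for 15 with T3, beside 6.87%. In both sets it was found for 9 of the 74, all 9 with the same sign, beside 168 of all 14162 genes (1.19%), of which 151 (1.07% of all) had the same sign. Besides Nkiras1 these were Abhd6, Acox2, Cfap20dc, Ptprg, Thoc7, Il3ra, Ube2e1 and Nid2, which are named after their values were seen. All 6 PBS arrays of Nid2 lay under the 40th percentile. The labels give both lines the same strain background, and the part of the chromosomal neighbourhood in these values was not tested.

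Abhd6, a monoacylglycerol lipase, read 10.19, 9.92 and 10.02 in GS and 9.47, 9.38 and 9.32 in KO (0.65 ± 0.13, adjusted p = 0.0583), and the T3 difference was 0.76 ± 0.13. Its WT arrays at 8.87, 9.48 and 9.61 lay on the KO side. Ptprg, a receptor tyrosine phosphatase, read 8.78, 8.56 and 8.74 in GS and 8.12, 8.25 and 8.23 in KO (0.49 ± 0.12, adjusted p = 0.102; 0.72 with T3). Its WT arrays at 8.88, 8.59 and 8.77 lay on the GS side, as did those of Ube2e1, a ubiquitin-conjugating enzyme, at 10.92, 10.83 and 10.89 against 10.90, 10.97 and 10.79 in GS and 10.65, 10.52 and 10.55 in KO. Acox2, a peroxisomal oxidase of bile acid synthesis, differed by -0.33 ± 0.10 with PBS and -0.53 ± 0.10 with T3. So the neighbours did not all have WT on the same side.

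**Figure D3:**
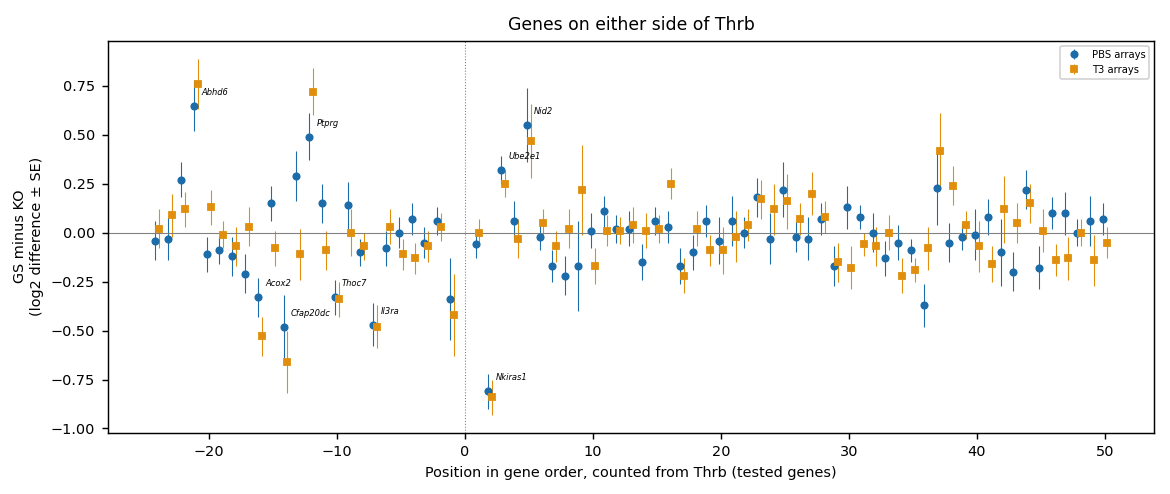
GS minus KO log2 difference ± SE (y axis) for the 74 tested genes around Thrb by position in gene order (x axis, counted from Thrb), with PBS (circles) and with T3 (squares). The 9 labelled genes had an unadjusted p under 0.05 in both sets of arrays, and circles and squares lie on the same side of 0 for each.

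No gene of the list known to respond to T3 in the liver was called between GS and KO. Of 18 tested hepatic T3 targets 1 had an unadjusted p under 0.05, beside 8.53% of all genes. Their median difference was 0.10, beside -0.01 over all genes. Without KO replicate 1 that median was -0.03. That gene was G6pc, glucose-6-phosphatase, at 13.01, 12.82 and 13.25 in GS and 13.16, 13.94 and 13.92 in KO (-0.65 ± 0.21, adjusted p = 0.256). Dio1, the deiodinase that T3 induces, read 6.13, 6.16 and 5.03 in GS, 6.09, 6.14 and 5.54 in KO and 5.06, 4.49 and 4.50 in WT, a GS minus KO difference of -0.15 ± 0.28. GS and KO arrays of Dio1 overlapped. All 3 WT arrays and 1 GS array lay under the 40th percentile of their array (5.39 to 5.45), so no size is given for the difference from WT. The 17 tested receptors, RXR and coregulators had a median of 0.08. Higher at an unadjusted p under 0.05 were 2, beside 4.24% of all genes. These were Ppargc1b (0.33) and Ncoa1 (0.17), both coactivators.

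Since the P-box of the GS protein resembles that of the glucocorticoid receptor, targets of that receptor were listed too. Of 19 tested, none was called. At an unadjusted p under 0.05, 3 were higher and 2 lower, beside 4.24% and 4.29% of all genes. The median was 0.04, but -0.19 without GS replicate 2. Dusp1, a phosphatase of MAP kinases that is also an early response gene, read 9.98, 9.67 and 10.66 in GS and 11.31, 11.29 and 11.96 in KO (-1.42 ± 0.39, adjusted p = 0.154). Fkbp5, a chaperone of steroid receptors, read 10.03, 10.84 and 10.88 in GS and 9.55, 10.06 and 10.06 in KO (0.70 ± 0.21, adjusted p = 0.222), so these 2 targets had opposite signs. Mt1 and Mt2, metallothioneins named after their values were seen, differed by 1.36 and 1.21, with overlapping arrays. Their GS minus WT differences were -1.66 and -1.98. Over the list 11 genes were higher and 8 lower, beside 6772 and 7390 of all genes.

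Lists of early response, stress and acute phase genes had negative medians, and Hspb1 was their only called member. All 15 tested immediate early genes had values below KO, beside 7390 of all 14162 genes. Their median was -0.36, and 4 had an unadjusted p under 0.05, beside 4.29% of all genes lower at that level. Jun, a subunit of AP-1, read 8.21, 8.15 and 8.57 in GS and 8.96, 9.95 and 9.22 in KO (-1.07 ± 0.27, adjusted p = 0.118). Egr1, a transcription factor induced within minutes of stimulation, read 7.61, 7.63 and 7.43 in GS and 8.38, 9.69 and 8.74 in KO (-1.38 ± 0.44, adjusted p = 0.249), again with no overlap. The mean over the list was 7.91, 7.91 and 8.08 in GS, 8.31, 8.87 and 8.52 in KO and 8.27, 8.48 and 8.13 in WT, highest in KO replicate 2.

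Of 17 tested heat shock and chaperone genes 12 were lower, beside 7390 of all 14162 genes, and the median was -0.13. Hspa1b, an inducible Hsp70 named after its values were seen, read 9.10, 8.71 and 9.20 in GS and 9.96, 11.49 and 10.22 in KO (-1.55 ± 0.34, adjusted p = 0.0698), with KO replicate 2 the highest. Among 20 tested acute phase genes 15 were lower, with a median of -0.09. Of these, 4 had an unadjusted p under 0.05, beside 4.29% of all genes lower at that level. Saa3, a serum amyloid gene, read 8.19, 8.41 and 7.93 in GS and 9.76, 8.92 and 8.49 in KO (-0.88 ± 0.25, adjusted p = 0.184), and Saa1 and Saa2 differed by -1.54 ± 0.48 and -1.60 ± 0.53. In a count chosen after the data were seen, leaving out KO replicate 2, 14 of 15 immediate early genes were lower with a median of -0.22, and 11 of 17 heat shock genes with a median of -0.05. Without KO replicate 1 the heat shock median was -0.22, and without GS replicate 1 the acute phase median was -0.06. With T3 the medians were -0.08 for immediate early, -0.13 for heat shock and -0.12 for acute phase genes.

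Markers of macrophages and of stellate cells also had negative medians. In whole liver, fewer cells of a type and less RNA per cell cannot be told apart. Of 14 tested Kupffer cell and macrophage markers 12 were lower in GS, beside 7390 of all 14162 genes, and none was called. Lower arrays without overlap were found for 8, beside 7.46% of all genes, and the median was -0.21. Cd68 read 7.61, 7.80 and 7.67 in GS and 8.35, 8.23 and 8.05 in KO (-0.52 ± 0.21, adjusted p = 0.443), and Clec4f differed by -0.42 ± 0.18, whereas Cd163 differed by 0.59 ± 0.20. With T3 the median of these markers was 0.31, but the list means overlapped. They were 8.71, 8.90 and 9.53 in GS and 8.66, 8.93 and 8.55 in KO, highest in GS T3 replicate 3. The 12 tested stellate cell and fibroblast markers had a median of -0.26, with 10 lower. An unadjusted p under 0.05 was found for 4 lower markers, beside 4.29% of all genes. Col3a1 (-0.93 ± 0.34), Lum (-0.79 ± 0.30) and Col1a1 (-0.55 ± 0.23) led them. Another probe set of Col1a1 differed by only -0.12, with overlapping arrays. Without GS replicate 1 the stellate median was -0.16, and with T3 it was 0.00. List means were 8.57 to 8.67 in GS and 8.81 to 9.14 in KO for the stellate markers, and 8.69 to 8.81 in GS and 8.86 to 8.98 in KO for the macrophage markers.

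Col27a1, called as lower in GS, had the same sign as the collagen markers above, and the part of stellate cells or fibroblasts in it was not tested. Sinusoidal endothelial markers had a median of 0.04 over 12 genes. The list of actin cytoskeleton and intermediate filaments also holds tubulins, annexins and S100 proteins. Among its 20 tested genes 17 were lower, beside 7390 of all 14162 genes. Lower at an unadjusted p under 0.05 were 7, beside 4.29% of all genes. The median was -0.19, or -0.12 without KO replicate 2. Anxa2, a membrane-binding annexin, read 9.57, 9.37 and 9.26 in GS and 10.01, 10.25 and 9.88 in KO (-0.64 ± 0.14, adjusted p = 0.0652). Tubb6 (-0.46 ± 0.11) and Tpm1 (-0.40 ± 0.11) followed. Other probe sets differed by only -0.07 for Tubb6 and -0.24 for Tpm1, with overlapping arrays, and by -0.30 for Anxa2, without overlap. With T3 the median of the cytoskeleton list was 0.13.

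Liver genes with a sex bias had opposite medians. Of 11 tested male-biased genes 10 were lower in GS than in KO, beside 7390 of all 14162 genes, and none was called. Of these, 5 had an unadjusted p under 0.05, beside 4.29% of all genes lower at that level. The median was -0.56. Cyp2d9, a male-biased cytochrome P450, read 13.91, 13.79 and 13.85 in GS and 14.03, 14.11 and 14.07 in KO (-0.22 ± 0.06, adjusted p = 0.171). Ugt2b38, a glucuronosyltransferase, read 8.23, 7.55 and 8.78 in GS and 8.84, 10.50 and 10.92 in KO (-1.90 ± 0.54, adjusted p = 0.171). Cyp7b1, an oxysterol hydroxylase, differed by -0.56 ± 0.18. The mean over the male-biased list was 11.08, 10.84 and 10.90 in GS, 11.31, 11.61 and 11.86 in KO and 10.53, 10.56 and 10.62 in WT, so the GS arrays lay between WT and KO.

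Of 18 listed female-biased genes 13 had a probe set with 1 gene symbol, and 8 were tested. The filter that left these 8 used the signal in these same arrays. They had a median of 0.32 and none was called, and 3 were higher at an unadjusted p under 0.05, beside 4.24% of all genes. Without GS replicate 3 the median was 0.17. Cyp17a1, a steroid hydroxylase, read 8.92, 10.60 and 8.81 in GS and 7.01, 7.46 and 7.62 in KO (2.08 ± 0.54, adjusted p = 0.137). Cyp2b9 read 10.33, 8.82 and 10.33 in GS and 9.23, 7.05 and 4.98 in KO (2.74 ± 0.95, adjusted p = 0.313), with overlapping arrays. Its lowest KO array lay under the 40th percentile. Acot3 differed by 1.21 ± 0.45. The list mean was 8.52, 8.54 and 8.63 in GS, 8.07, 7.68 and 7.42 in KO and 8.57, 8.43 and 8.38 in WT. With T3 the medians were -0.14 for the male-biased and 0.06 for the female-biased list, and all animals were labelled male.

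**Figure D4:**
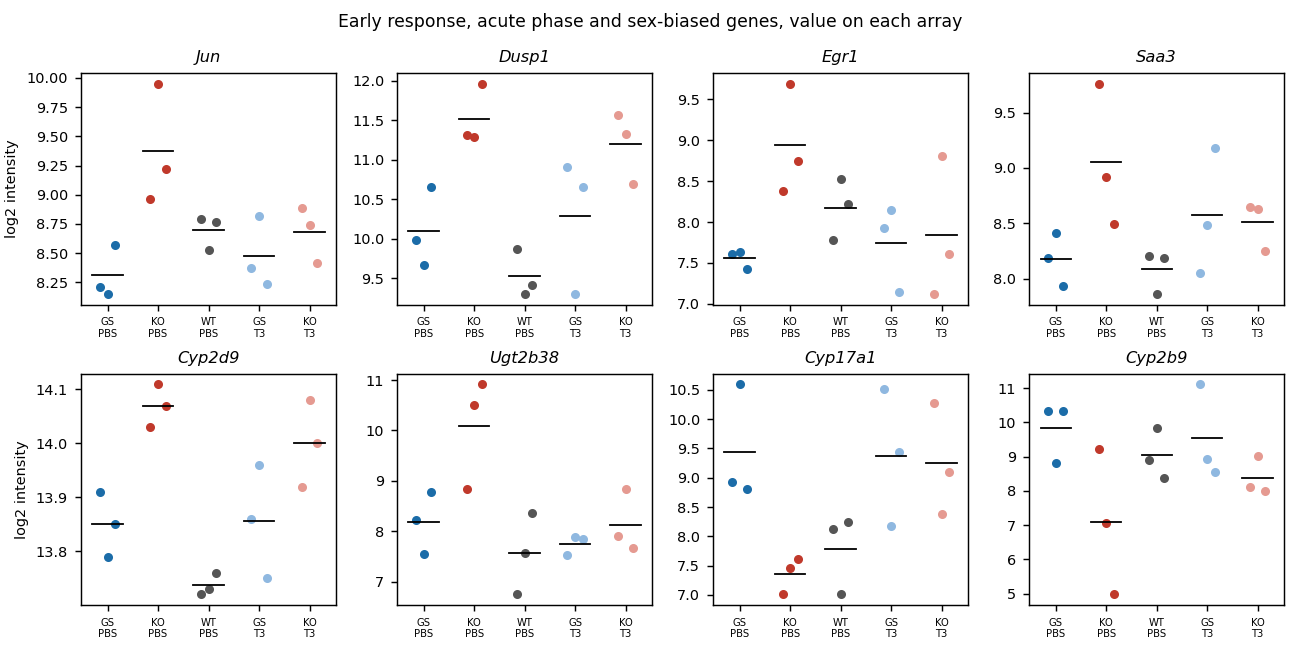
Log2 intensity (y axis) of early response (Jun, Dusp1, Egr1), acute phase (Saa3), male-biased (Cyp2d9, Ugt2b38) and female-biased genes (Cyp17a1, Cyp2b9) on each of 3 arrays per group, with a bar at the group mean. KO PBS has the highest mean of the groups shown for the first 6 genes and the lowest for Cyp17a1 and Cyp2b9, and none of the 8 was called.

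Among the metabolic lists, all 16 tested genes of cholesterol synthesis and uptake had higher values in GS, beside 6772 of all 14162 genes. Their median was 0.33. An unadjusted p under 0.05 was found for 2, beside 4.24% of all genes higher at that level. These were Sc5d (0.33 ± 0.15) and Msmo1 (0.51 ± 0.24), both enzymes late in the pathway. GS and KO arrays of both overlapped, and other probe sets of Sc5d differed by 0.21 and -0.13, so they disagreed in direction. The mean over the cholesterol list was 11.46, 11.19 and 11.11 in GS and 10.63, 11.24 and 10.85 in KO. These overlapped because of KO replicate 2, and without that array the median was 0.52. It was 0.23 without KO replicate 1, 0.23 without GS replicate 1, and 0.19 with T3. Of 19 tested fatty acid synthesis genes 17 had higher values, with 0 at an unadjusted p under 0.05 and a median of 0.10, which was -0.03 without KO replicate 1 and 0.21 without KO replicate 2. The 20 tested oxidative phosphorylation subunits lay between -0.09 and 0.10 with a median of 0.00.

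Of 27 tested genes of xenobiotic metabolism 20 had higher values, beside 6772 of all 14162 genes. There were 6 higher and 1 lower at an unadjusted p under 0.05, beside 4.24% and 4.29% of all genes. The median was 0.09, or 0.03 without KO replicate 2. Gstm2, a relative of the called Gstm6, read 11.67, 11.81 and 11.66 in GS and 10.77, 10.77 and 11.03 in KO (0.86 ± 0.18, adjusted p = 0.0590), with WT at 11.92, 11.95 and 12.01. Cyp3a11 differed by -0.54 ± 0.18 and Cyp2c54 by 0.45 ± 0.16. Among 13 tested periportal hepatocyte genes 6 were higher at an unadjusted p under 0.05, beside 4.24% of all genes, and the median was 0.17, against 0.00 for 13 tested pericentral genes. Without KO replicate 2 the periportal median was 0.09. Aldh1b1, a mitochondrial aldehyde dehydrogenase, read 9.81, 9.90 and 9.69 in GS and 9.38, 9.12 and 9.04 in KO (0.62 ± 0.15, adjusted p = 0.106). Hal, which starts histidine breakdown, differed by 0.40 ± 0.12, and Asl, of the urea cycle, by 0.26 ± 0.09, and with T3 the periportal median was -0.02.

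**Figure D5:**
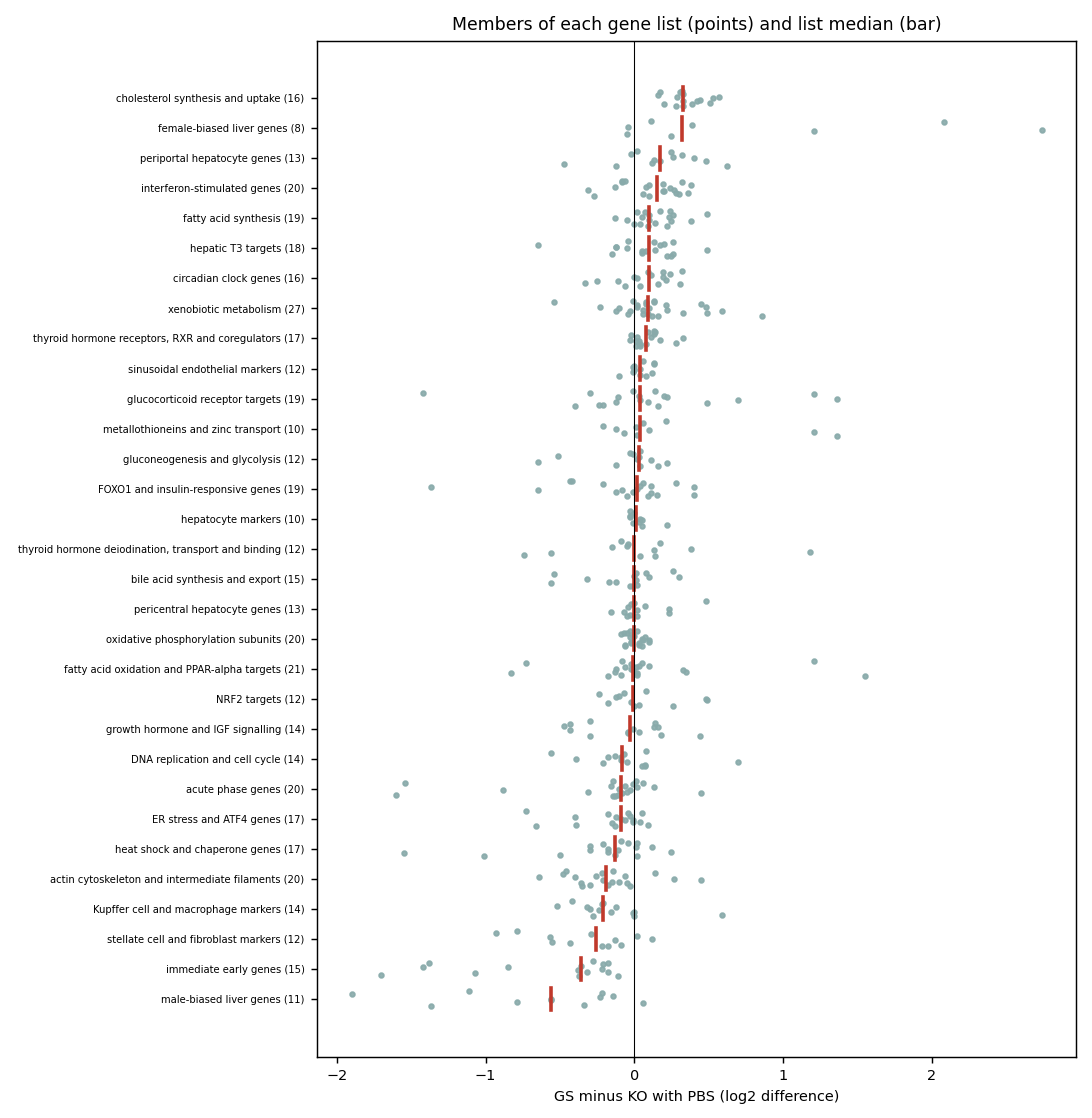
GS minus KO log2 difference with PBS (x axis) of each tested member (points) and the median (bar) of each gene list with at least 8 tested members, whose number is in brackets. The medians run from -0.56 for male-biased genes to 0.33 for cholesterol synthesis, and most lie near 0.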

How the data were processed

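Per the labels, total RNA (200 ng) was made into biotinylated cRNA for Affymetrix arrays, and per the submitters' processing notes the arrays were summarised with RMA (version not given in the sources used here). The authors deposited log2 intensities of 45101 probe sets on 24 arrays. In 6 deposited columns, of Y147F mice, the decimal mark was lost and was restored, with 775 cells (0.286%) set missing. These arrays enter the choice of probe set, the filter and the shared estimate of spread. A probe set had to have 1 gene symbol (34958 did, 932 had several and 9211 none), and each of 18194 genes took its brightest probe set. Genes at the 40th percentile of an array in at least 3 arrays were tested.

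In R 4.3.3 with limma 3.58.1, 8 group means were fitted to all 24 arrays (lmFit, eBayes, 16 residual and 4.28 prior degrees of freedom), with two-sided tests and Benjamini-Hochberg adjustment over 14162 genes, and the steps were tested on simulated data. Gene symbols and their order along chromosomes came from RefSeq (GRCm38.p6). Nothing beyond the title numbers says the arrays are separate animals, so p-values measure the spread between these samples. The comparison, the gene lists and the other settings were chosen with earlier results of these data known. Named are up to 15 called genes per direction by size, filled to 8 by smallest p, Thrb, Thra, Dio1, called list members and neighbours of Thrb, and up to 3 members of a described list by p. Others are said to be named after their values were seen. Exact permutation of 3 against 3 arrays cannot give a p below 0.1, so tests rest on limma.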

Additional observations from a re-analysis of the deposited data

Results flagged for a closer look

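Of 4118 tested probe sets without a single gene symbol, which enter no comparison above, 2 were called between GS and KO with PBS in their own fit. Probe set 1434328_at read 10.10, 10.16 and 10.12 in GS, 10.83, 10.80 and 10.89 in KO and 10.29, 10.37 and 10.24 in WT, a difference of -0.71 ± 0.09 (limma, adjusted p = 0.000390), and -0.69 with T3 (adjusted p = 0.000590). Probe set 1457250_x_at read 6.40, 6.15 and 6.11 in GS and 5.70, 5.31 and 5.68 in KO, a difference of 0.66 ± 0.11 (limma, adjusted p = 0.0183), and 0.56 with T3 (adjusted p = 0.0646). Both are set out because the signal lies in data outside the main measurement.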

How the results depend on the processing

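The 12 calls of GS against KO with PBS became 2 with a 2-fold threshold, 25 after quantile normalization, 23 with a filter at the 60th percentile, 25 with the mean of probe sets, 23 with a variance trend and robust moderation, 6 with the 18 first-submitted arrays, 45 with array weights and 6 with a covariate for title numbers. Without 1 array they numbered 3 to 22. The 15 calls with T3 became 7 at 2-fold, 6 with the 18 arrays, 0 with only the arrays compared and 4 with the covariate, and 2 to 30 without 1 array. The test of the change with T3 gave 0 to 1 calls without 1 array, the 1 without KO PBS replicate 2. GS against WT (418) gave 53 at 2-fold, 211 with only the arrays compared, 671 with weights and 235 to 314 without 1 array. KO against WT (973) gave 88, 382 with only the arrays compared and 523 to 794. Of 988 values for 66 genes, 884 kept direction and side, 66 lost their call, 33 gained one and 5 reversed: Dio1 0.19 with the covariate, and, without 1 array, Thrb (-0.11 to 0.10, above 0 without KO PBS replicate 1), Thra (-0.03 to 0.15, below 0 without KO PBS replicate 3 or GS PBS replicate 3) and Dio1 (-0.34 to 0.22, above 0 without GS PBS replicate 3). The cause was not tested, except that a 2-fold threshold leaves fewer calls by construction. Leaving out 1 array, the medians ran from -0.62 to -0.38 for male-biased, -0.42 to -0.22 for immediate early and 0.23 to 0.52 for cholesterol genes. Of 555 list medians over all settings, 543 moved by less than the spread of the list mean between arrays. Several settings change only the variance estimate, and leaving out 1 array shifts a group mean by less than its spread. Most of these medians could therefore hardly move further, and the count does not measure stability. No paired analysis was possible because the labels give the groups no shared replicate numbers.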
